A study of Mus musculus with 2 samples.

Results

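The genes described here encode the peptides and glycoproteins of the stomach's surface (pit) and neck mucous cells: the trefoil peptides Tff1 and Tff2, the gastrokines Gkn1, Gkn2 and Gkn3, the surface protein Psca, and the secreted mucins Muc5ac and Muc6. They are 8 of the 23924 gene symbols in the deposited table. They were chosen by name after their values in these libraries had been seen, for being listed in the IgG control, so the contrast between the libraries is a description of them and not a finding. All 8 were found, each as 1 transcript row.

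Mucous cells line the stomach with a gel that holds acid and pepsin away from the epithelium. Surface cells of the pits make MUC5AC, TFF1 and gastrokines 1 and 2, and neck cells and deeper mucous glands make MUC6 and TFF2. Trefoil peptides are small, disulfide-knotted proteins that are secreted with the mucins and help the epithelium to repair itself. Gastrokines are secreted proteins with a BRICHOS domain, a fold thought to act as a chaperone. These genes are best known as products of epithelia, that of the stomach among them, and were not among the macrophage markers used here.

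The RNA came from RAW 264.7 cells, a mouse macrophage line, in which the labels give depletion of mRrp6, a ribonuclease of the nuclear exosome whose gene is Exosc10. Both libraries were made from such depleted cells that received 80 ng/ml of LPS, a bacterial endotoxin, for 12 h, so no undepleted or unstimulated group exists. RNA was recovered from nuclear extracts with an antibody against nucleolin, a nucleolar RNA-binding protein, or with an anti-rabbit IgG control antibody, and was sequenced as cDNA. There was 1 library of each kind, so no spread between replicates exists, no test was run and there are no p-values. Values are FPKM, the fragments of a transcript scaled to its length and to the mapped fragments of the library. How mRrp6 was depleted, and whether the line used was 1 clone, is not stated in the labels. The IgG control held transcripts of gastric, pancreatic and other epithelia beside those of macrophages, which goes against its label as a macrophage line, and the values are given with the marker lists.

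The depth of both libraries was low, and it could be read from the values. Among genes with a single short span, 113 in the IgG control and 83 in the anti-nucleolin library, a search was made for a fixed number of bases to take off the span so that the products of FPKM and remaining length coincide. The best choice gave 1 product, within 0.02%, for 12 genes of the IgG control and for 7 of the anti-nucleolin library, and that product was read as the worth of 1 fragment. It implies 23666 mapped fragments in the IgG control and 60891 in the anti-nucleolin library, if FPKM was scaled as its name says. How often so many products coincide without whole fragments was not tested. The number taken off each length was 202.4 bases in the IgG control and 234 bases in the anti-nucleolin library, which raises the FPKM of short transcripts more than that of long ones. At the same remaining length, 1 fragment was worth 2.57 times as much FPKM in the IgG control. The factor is smaller for short transcripts, since more bases were taken off in the anti-nucleolin library. A gene with equal fragments in both appears lower in the anti-nucleolin library. The targeted gene Exosc10 was at 0 FPKM in the IgG control and 6.42 FPKM in the anti-nucleolin library, and Ncl, which encodes nucleolin, was at 5.25 and 6.14 FPKM. Since both libraries came from depleted cells, these values do not check the depletion.

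Promoter sequences from RefSeq (build GRCm38.p6, the same assembly as mm10) were matched by symbol for 4 of the 8 genes, the 3 gastrokines and Muc6. They are shown because these genes share a cell lineage in which GATA factors are known to act. Each runs 5′ to 3′ along the gene's own strand from 250 bases before to 50 bases after the start, and capitals mark GATAA or, on the other strand, TTATC. The windows are chr6:87350866-87351165 on the minus strand for Gkn1, chr6:87373115-87373414 on the plus strand for Gkn2, chr6:87388886-87389185 on the minus strand for Gkn3 and chr7:141655344-141655643 on the minus strand for Muc6.
Gkn1: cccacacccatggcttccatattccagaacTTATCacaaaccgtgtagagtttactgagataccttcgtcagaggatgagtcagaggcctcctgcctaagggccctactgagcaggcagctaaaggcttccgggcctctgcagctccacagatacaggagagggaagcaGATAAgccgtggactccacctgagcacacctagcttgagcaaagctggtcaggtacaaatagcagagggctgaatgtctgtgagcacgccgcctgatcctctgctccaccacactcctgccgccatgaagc
Gkn2: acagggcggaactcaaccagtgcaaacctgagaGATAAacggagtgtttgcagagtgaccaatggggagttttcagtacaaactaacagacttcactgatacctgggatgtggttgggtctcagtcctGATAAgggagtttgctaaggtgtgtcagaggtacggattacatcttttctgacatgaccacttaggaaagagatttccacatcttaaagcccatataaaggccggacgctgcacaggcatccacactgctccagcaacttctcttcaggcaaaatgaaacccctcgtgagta
Gkn3: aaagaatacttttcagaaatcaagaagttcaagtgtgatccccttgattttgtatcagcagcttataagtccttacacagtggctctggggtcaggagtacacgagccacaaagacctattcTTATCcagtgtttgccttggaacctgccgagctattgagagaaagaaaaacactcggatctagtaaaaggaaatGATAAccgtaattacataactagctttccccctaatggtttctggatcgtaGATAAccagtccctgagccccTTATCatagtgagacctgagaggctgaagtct
Muc6: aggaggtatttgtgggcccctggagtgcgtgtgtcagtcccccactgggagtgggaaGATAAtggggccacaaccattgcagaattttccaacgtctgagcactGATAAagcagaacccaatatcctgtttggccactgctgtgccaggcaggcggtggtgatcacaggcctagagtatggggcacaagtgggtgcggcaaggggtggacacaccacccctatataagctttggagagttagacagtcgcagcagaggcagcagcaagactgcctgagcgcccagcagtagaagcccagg

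GATAA was present on either strand in all 4 windows, 2 times each in Gkn1, Gkn2 and Muc6 and 4 times in Gkn3. Of all 32851 promoter windows of the same length in the reference table, 25.4% held it on either strand. TATAA was also searched on both strands. Counted from the start site, its first base was at -29 in Gkn2 and at -28 in Muc6. In Gkn3 it was at -187 on the gene's strand and at -188 on the other strand, and these 2 matches overlap. It was not in the window of Gkn1. TATAA was in 24.9% of all windows. No match of TATAA overlapped one of GATAA in these windows. Both motifs were chosen with earlier results of these data known, and a match is a description of letters, not a binding site.

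Of the 8 genes Tff1 had the highest value. Tff1, a trefoil peptide secreted by surface cells, was at 2915 FPKM in the IgG control and listed at 0 in the anti-nucleolin library. It ranked 7 among the 2023 genes above 0 in the IgG control. Tff2, secreted by neck cells, was at 803 FPKM in the IgG control and listed at 0 in the anti-nucleolin library, at rank 16. Tff1 was 3.63 times as high as Tff2. The remaining member of the family, Tff3, which is made by goblet cells of the intestine, was at 0 in both libraries. Tff1 and Tff2 together held 50.5% of the summed IgG FPKM of the 8 genes.

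Among the gastrokines, Gkn2 was at 1545 FPKM (rank 8) and Gkn1 at 1163 FPKM (rank 10) in the IgG control. Gkn3, which in the mouse is a product of mucous neck cells, was much lower at 71.6 FPKM (rank 241). All 3 were listed at 0 in the anti-nucleolin library. Gkn2 was 1.33 times as high as Gkn1 and 21.6 times as high as Gkn3. The other BRICHOS genes that reached 1 FPKM were listed in both libraries. Itm2b, a widely expressed membrane protein, was at 108 FPKM in the IgG control and 21.4 FPKM in the anti-nucleolin library, and its relative Itm2c at 23.2 and 9.17 FPKM.

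Psca, a small protein anchored in the outer membrane and a member of the Ly6 family, was at 776 FPKM in the IgG control (rank 17) and listed at 0 in the anti-nucleolin library. Its level was close to that of Tff2, which was 1.03 times as high. Of the 20 genes of the Ly6 and uPAR family in the table, 5 reached 1 FPKM in a library. Of these, 4, Psca included, were at least 2-fold lower and 1 at least 2-fold higher with the anti-nucleolin antibody. By the same measure 56.7% of all genes of at least 1 FPKM in a library were lower and 37.8% higher. Ly6d, a marker of stratified epithelia and lymphoid cells, was at 86.5 FPKM in the IgG control and 0 in the anti-nucleolin library. The other 3 were listed in the anti-nucleolin library: Ly6e (102 FPKM in the IgG control and 10.1 FPKM in the anti-nucleolin library), Plaur, the urokinase receptor of macrophages (35.4 and 14.1 FPKM), and Lypd8 (0 and 20.3 FPKM).

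The gel-forming mucins were the lowest of the 8. Muc5ac, the mucin of surface cells, was at 71.2 FPKM in the IgG control (rank 243), and Muc6, the mucin of neck cells and glands, at 10.6 FPKM (rank 1538). Both were listed at 0 in the anti-nucleolin library. Muc5ac was 6.72 times as high as Muc6, and together they held 1.11% of the summed IgG FPKM of the 8 genes. The other secreted mucins, Muc2 of intestinal goblet cells, Muc5b of airways and glands, and Muc19, were at 0 in both libraries. Of 5 membrane mucins in the table only Muc1, an epithelial surface mucin, was listed, at 20.7 FPKM in the IgG control and 0 in the anti-nucleolin library.

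**Figure D1:**
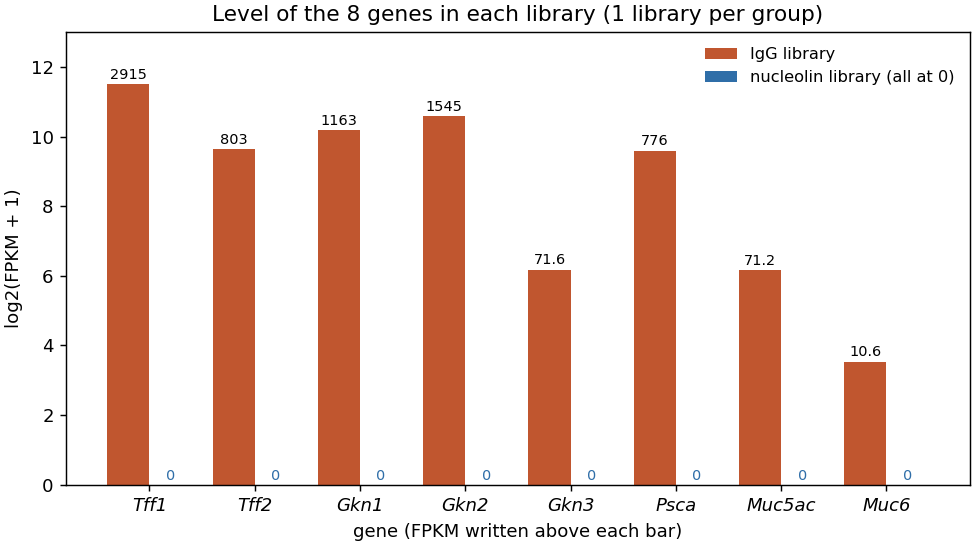
Bars show log2(FPKM + 1) of each of the 8 genes in the IgG control (orange) and the anti-nucleolin library (blue, no visible bar because every value is 0), with the FPKM written above; each bar is 1 library, so there are no error bars. Tff1 is highest at 2915 FPKM and Muc6 lowest at 10.6 FPKM, and none of the 8 is above 0 in the anti-nucleolin library.

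Grouped by the cell that makes them, the surface cell products (Tff1, Gkn2, Gkn1 and Muc5ac) ranged from 71.2 to 2915 FPKM and the neck cell products (Tff2, Gkn3 and Muc6) from 10.6 to 803 FPKM. The ranges overlap. Within each kind of protein the surface form was above the neck form, with Tff1 above Tff2, Gkn1 and Gkn2 above Gkn3, and Muc5ac above Muc6. With 1 library no spread measures these differences. Neighbours in the order that lay very close were Tff2 and Psca, and Gkn3 and Muc5ac, at 71.6 and 71.2 FPKM.

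The fragments behind these values bound how firmly they can be read. Per kilobase of effective length, that is length less the 202.4 bases, the IgG control held 69.0 fragments for Tff1, 36.6 for Gkn2, 27.5 for Gkn1, 19.0 for Tff2 and 18.4 for Psca. It held 1.69 per kilobase for both Gkn3 and Muc5ac and 0.251 for Muc6. Transcript lengths were not used here, so fragment numbers were bounded from above by the length of the gene. That gave at most 238 fragments for Tff1, 216 for Gkn2, 139 for Gkn1, 57 for Tff2, 50 for Muc5ac, 37 for Psca, 9 for Gkn3 and 5 for Muc6. These are upper limits, since introns count toward the length of the gene. For Muc6 the row's transcript is not among those the reference lists for the gene.

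The 12 genes at 1 fragment ranged from 16.9 to 75.9 FPKM in the IgG control. Tff1, Gkn2, Gkn1, Tff2 and Psca were all above that range, and Psca, the lowest of them, was 10.2 times its top. Gkn3 and Muc5ac lay inside it and Muc6 below it. A value of 1 fragment in the IgG control would need an effective length of 590 bases for Gkn3, 593 bases for Muc5ac and 3983 bases for Muc6. A count of 0 in the anti-nucleolin library allows up to 3 fragments. At the same effective length these are worth as much as 1.17 fragments of the IgG control, and for short transcripts somewhat more. If Gkn3 or Muc6 rests on 1 fragment, its difference between the libraries was not detectable at this depth. Such limits cover counting error only.

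All 8 genes were at least 2-fold lower in the anti-nucleolin library on the scale log2(FPKM + 1), as were 1812 of the 3194 genes of at least 1 FPKM in a library (56.7%), while 1206 (37.8%) were at least 2-fold higher. Of 2008 genes of at least 1 FPKM in the IgG control, 1470 (73.2%) were below 0.1 FPKM in the anti-nucleolin library. Since the genes were picked from this contrast, nothing is read from their count. A ratio against 0 is set by the IgG level and the added 1, so no size of it is read.

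The absence from the anti-nucleolin library can be set beside the level in the IgG control. Of the 17 genes of at least 700 FPKM in the IgG control, 13 were below 0.1 FPKM in the anti-nucleolin library (76.5%), and 5 of these 13 were Tff1, Gkn2, Gkn1, Tff2 and Psca. Another 4 were products of the stomach or pancreas, Pgc, Clps, Pla2g1b and Chia1. In the band from 200 to 700 FPKM 24 of 46 genes (52.2%) were below 0.1 FPKM in the anti-nucleolin library, and from 70 to 200 FPKM 110 of 185 (59.5%), among them Gkn3 and Muc5ac. Among the lower genes the share was 490 of 680 (72.1%) from 20 to 70 FPKM. It was 833 of 1080 (77.1%) from 1 to 20 FPKM, the band of Muc6. Tff1, Gkn2, Gkn1, Tff2 and Psca were picked from the contrast between the libraries, which raises the share at 700 FPKM or more. That share is therefore not compared with those of the other bands. These bands were set after the values had been seen.

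**Figure D2:**
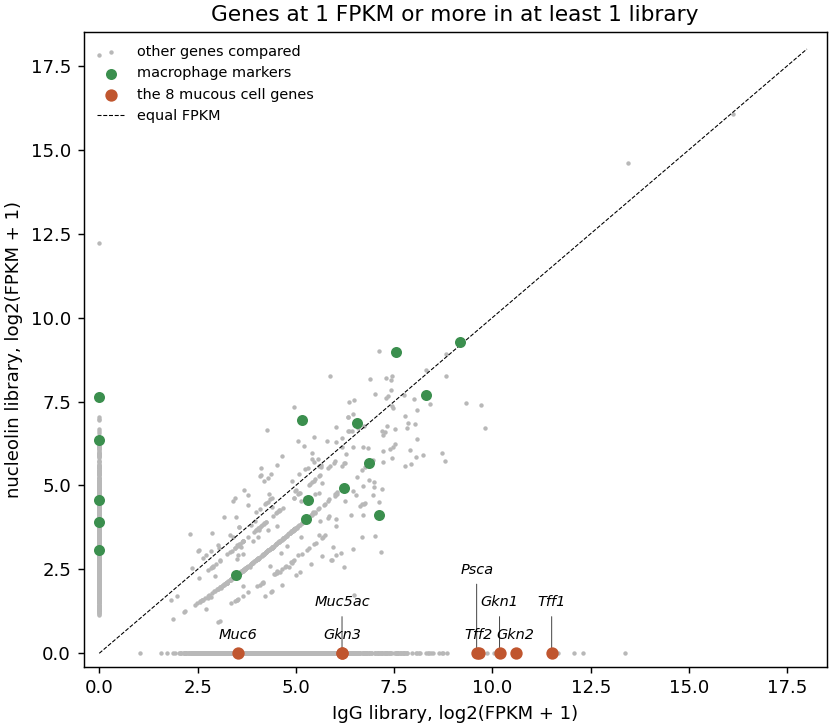
Each point is 1 of the 3194 genes of at least 1 FPKM in a library, by its log2(FPKM + 1) in the IgG control (x axis) and in the anti-nucleolin library (y axis); orange points are the 8 mucous cell genes, green points are macrophage markers and the dashed line marks equal FPKM. The 8 genes lie on the x axis at 0 in the anti-nucleolin library. Of 16 macrophage markers, 11 have a value in both libraries and 5 lie on the y axis, against 538 and 1186 of all 3194 genes. The straight bands of grey points are genes at small whole numbers of fragments.

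The 5 genes most like Tff1, by distance over log2(FPKM + 1) in the 2 libraries, were Pla2g1b (a secreted phospholipase of the pancreas, distance 0.16), Clps (colipase, 0.58), Pgc (pepsinogen C of the stomach, 0.80), Gkn2 (0.92) and Chia1 (acidic chitinase, 0.96). All 5 were listed at 0 in the anti-nucleolin library, so the distance reflects the IgG level alone. Pgc was at 5078 FPKM there, 1.74 times Tff1, and Chia1 at 1503 FPKM, 0.516 times Tff1.

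The 8 genes lie in 3 clusters and 1 single locus. The trefoil and mucin clusters also hold relatives best known from other epithelia, and the gastrokine cluster holds none. On chromosome 17, Tff2 (31141062 to 31144282) and Tff1 (31161395 to 31165060) follow Tff3. On chromosome 6, Gkn1 (87345653 to 87350915), Gkn2 (87373365 to 87379494) and Gkn3 (87383319 to 87388935) span 43.3 kb with no other protein-coding gene between them. On chromosome 7, Muc6 (141633459 to 141655393) and Muc5ac (141788958 to 141819227) lie on either side of Muc2, and Muc5b follows. Psca lies on chromosome 15 from 74714839 to 74717065. These coordinates are those of GRCm38.p6.

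The nearest protein-coding neighbours, up to 2 on each side and the genes inside the clusters, numbered 19 besides the 8. Of these, only Them6, which lies beside Psca, was above 0 in the IgG control, at 32.9 FPKM against 26.2 FPKM in the anti-nucleolin library. Over the whole table, 2023 of the 23924 gene symbols were above 0 in the IgG control. Ap2a2, an endocytic adaptor gene beside Muc6, was at 0 in the IgG control and 3.73 FPKM in the anti-nucleolin library. In the trefoil and mucin clusters the gastric genes were listed in the IgG control, while Tff3, Muc2 and Muc5b beside them were at 0. The gastric genes were picked for being listed there and most genes were at 0, so nothing is read from this contrast.

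**Figure D3:**
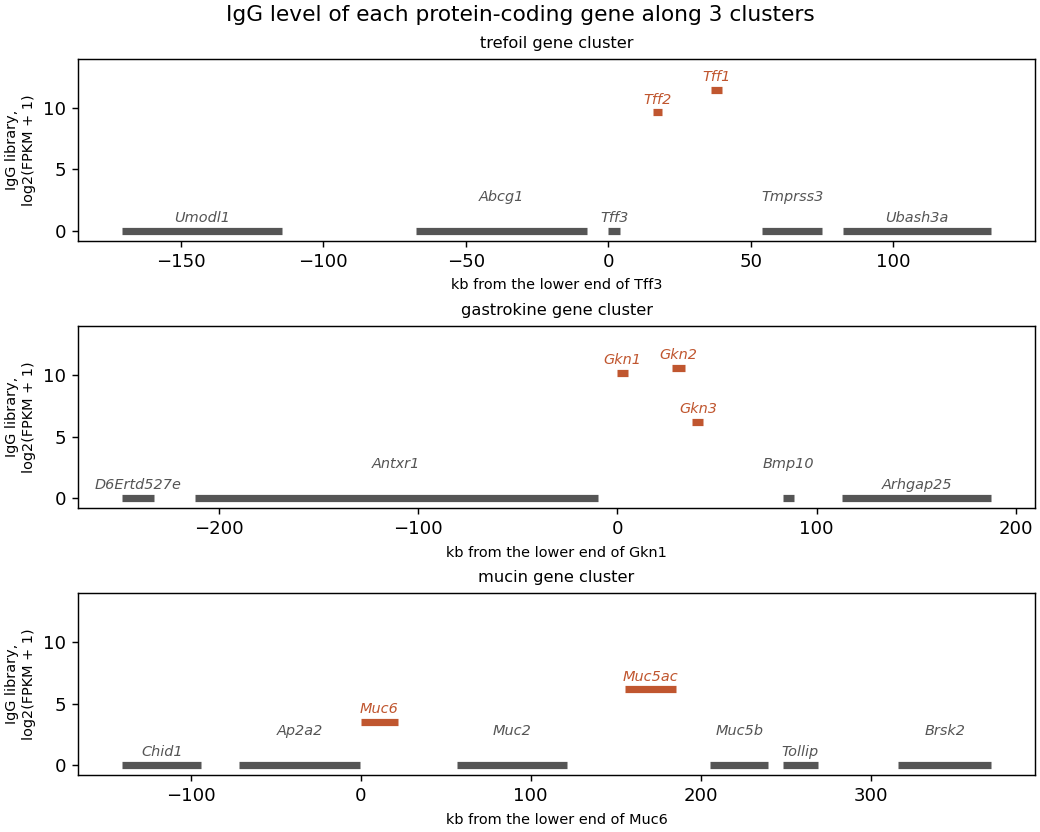
Horizontal bars mark protein-coding genes at their distance in kb from the lower end of the named gene (x axis) and at their log2(FPKM + 1) in the IgG control (y axis), for the trefoil, gastrokine and mucin clusters; orange marks the genes described and grey their neighbours. The 7 orange genes are above 0, for which they were chosen, and the 15 grey neighbours are at 0, Tff3, Muc2 and Muc5b among them.

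Other markers of surface and neck mucous cells were listed mainly in the IgG control. Of 21 such genes in the table besides the 8, 10 reached 1 FPKM in a library. Of these, 9 were at least 2-fold lower and 1 at least 2-fold higher in the anti-nucleolin library, against 56.7% and 37.8% of all genes compared. Of the 9 lower genes, 8 were below 0.1 FPKM in the anti-nucleolin library, as were 73.2% of all genes of at least 1 FPKM in the IgG control. The summed level of the list was 482 FPKM in the IgG control against 22.6 FPKM in the anti-nucleolin library. Ctse, the aspartic protease cathepsin E of surface cells, was at 132 FPKM in the IgG control and 0 in the anti-nucleolin library. Dpcr1, a mucin-like gene, was at 87.8 and 2.31 FPKM, and Aldh3a1, an aldehyde dehydrogenase of the gastric and corneal epithelium, at 60.7 and 0 FPKM. The highest of these was far below Tff1, and the 11 other markers were below 1 FPKM in both libraries. The gene that was higher in the anti-nucleolin library was Lypd8. Of the 9 lower genes, only Ctse and Dpcr1 lay above the range of the genes at 1 fragment in the IgG control (16.9 to 75.9 FPKM). The others lay within or below it. For any of them that rests on 1 fragment, the difference between the libraries was not detectable at this depth.

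Genes that fold and glycosylate mucins were sparse. Of 32, 11 reached 1 FPKM in a library, 9 lower and 1 higher by 2-fold or more, against 56.7% and 37.8% of all genes compared. The summed level of the list was 201 FPKM in the IgG control against 37.1 FPKM with the anti-nucleolin antibody. B3gnt3, which extends O-linked sugar chains, was at 44.5 FPKM, and Creb3l4, a transcription factor of secretory cells, at 31.3 FPKM in the IgG control, both at 0 in the anti-nucleolin library. Pdia3, a disulfide isomerase that all secretory cells use, was at 17.3 and 34.1 FPKM and less than 2-fold apart. Agr2, the isomerase most closely tied to mucin folding, and A4gnt, which caps MUC6 sugars, were at 0 in both libraries. None of the 9 lower genes of this list lay above the range of the genes at 1 fragment in the IgG control.

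Transcription factors of the foregut gave few values. Of 22 in the deposited data, 4 reached 1 FPKM in a library, 3 lower and 1 higher, against 56.7% and 37.8% of all genes compared. Klf4, which is shared by epithelial cells and macrophages, was at 59.5 and 5.84 FPKM in the IgG control and the anti-nucleolin library. Gata4 was at 26.5 FPKM in the IgG control and 0 in the anti-nucleolin library. Esrrg was at 8.29 and 0 FPKM, and Foxa1 at 0 and 5.56 FPKM. Sox2, Gata6, Foxa2 and Spdef were at 0 in both. Klf4 and Gata4 lie within the range of the genes at 1 fragment in the IgG control, and Esrrg lies below it.

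Markers of the other gastric cell types stood beside the 8 genes in the IgG control. Of 9 chief cell, 10 parietal cell and 9 endocrine cell markers in the table, 3, 6 and 3 reached 1 FPKM in the IgG control. The rest, among them Pga5, Lipf, Slc26a7, Gast and Sst, were at 0 in both libraries. All that reached 1 FPKM were below 0.1 FPKM in the anti-nucleolin library. So were 73.2% of all genes of at least 1 FPKM in the IgG control. The summed IgG levels of the chief, parietal and endocrine lists were 6772, 735 and 401 FPKM, against 7354 FPKM for the 8 mucous cell genes. Atp4a and Atp4b, the subunits of the acid pump of parietal cells, were at 282 and 225 FPKM, and Ghrl, the ghrelin gene of endocrine cells, at 357 FPKM. Gif, the intrinsic factor gene that mouse chief cells express, was at 191 FPKM, and Car2, a carbonic anhydrase of parietal and other cells, at 159.7 FPKM. General epithelial markers followed the same pattern, with 4 of 10 listed in the IgG control only and Krt8 at 185 FPKM. Pancreatic acinar markers summed to 7761 FPKM in the IgG control and 0 in the anti-nucleolin library, 6 of 24 of them being listed. Markers of other tissues were listed too: 5 of 9 keratinocyte markers (Krt10 at 201 FPKM) and 8 of 12 smooth muscle and fibroblast markers (Tagln at 214 FPKM), all of them below 0.1 FPKM in the anti-nucleolin library. Of the smooth muscle and fibroblast markers, only Tagln lay above the range of the genes at 1 fragment in the IgG control. So did only Clps and Pla2g1b of the acinar markers and only Ghrl of the endocrine markers. Of 9 markers of B, T and red blood cells only Lck, a kinase of T cells, was listed, at 8.92 FPKM in the anti-nucleolin library. Of 14 intestinal markers only Apoa1 was listed, at 215 FPKM in the IgG control, and Vil1, Cdx2, Fabp2 and Lgr5 were at 0.

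Macrophage markers were present in both libraries. Of 18 in the deposited data, 16 reached 1 FPKM in a library, 11 of them in both, 5 below 0.1 FPKM in the IgG control and 0 below it in the anti-nucleolin library. Of all 3194 genes compared, 538 were listed in both. Another 1186 were below 0.1 FPKM in the IgG control and 1470 below it in the anti-nucleolin library. By fold, 7 were higher and 5 lower in the anti-nucleolin library, against 37.8% and 56.7% of all genes compared. After centring on all genes, 9 of the markers were higher and 1 lower. Their summed level was 1620 FPKM in the IgG control and 2029 FPKM in the anti-nucleolin library. Ccl3 and Ccl4, both chemokines, were at 575 and 620.4 FPKM and at 185 and 501 FPKM. Cd14, the LPS co-receptor, was at 319 and 207 FPKM. Lyz2, the lysozyme of myeloid cells, was at 0 in the IgG control and 199.6 FPKM in the anti-nucleolin library. The IgG control held macrophage and gastric epithelial transcripts side by side, and the part of other cells or samples in the values of the 8 genes was not tested. Each antibody had 1 library, so antibody recovery, the number of cells of a type and the RNA per cell cannot be told apart.

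**Figure D4:**
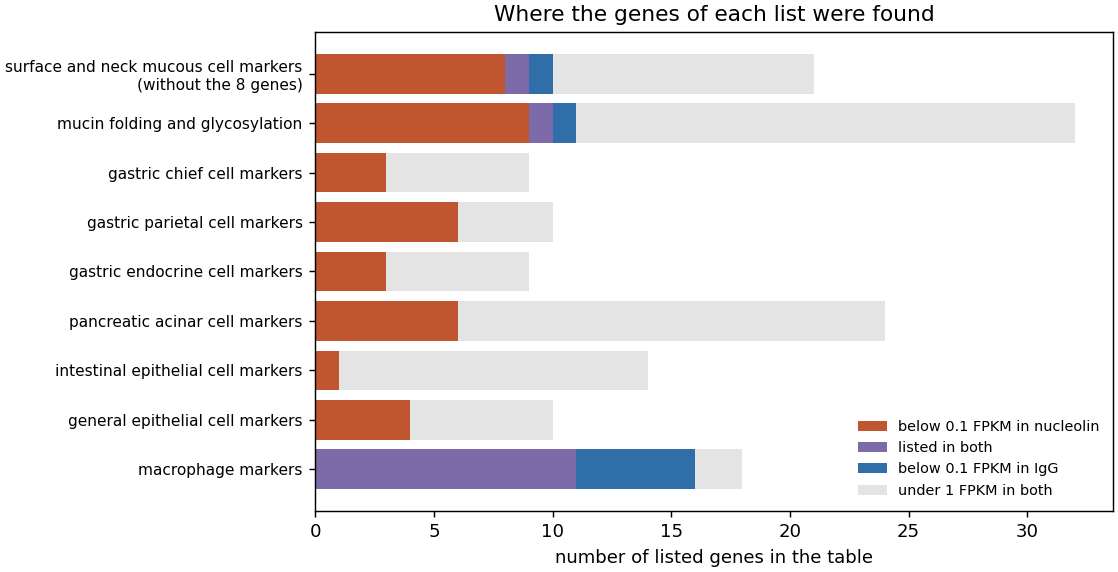
Bars give the number of genes of each marker list in the table (x axis), divided by where they were listed: below 0.1 FPKM in the anti-nucleolin library (orange), in both libraries (purple), below 0.1 FPKM in the IgG control (blue), or under 1 FPKM in both (light grey). The gastric, pancreatic, intestinal and general epithelial lists are mostly orange where they were measured, and the macrophage list has 0 orange genes. Of all 3194 genes compared, 1470 would be orange, 538 purple and 1186 blue.

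The 8 genes summed to 7354 FPKM in the IgG control and 0 in the anti-nucleolin library. That was 3.86% of the summed FPKM of the IgG control, and 7.53% without Rn45s, Lars2, Mir6236 and Mir142b. The median of the 8 was 789 FPKM, against 18.4 FPKM over the genes of at least 1 FPKM in the IgG control. Trefoil peptides and gastrokines together carried most of it, at 50.5% and 37.8% of the sum, with Psca at 10.6% and the mucins at 1.11%.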

How the data were processed

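RNA immunoprecipitated from nuclei with IgG or a nucleolin antibody was sequenced, 1 library each. The deposited table gives FPKM per transcript, per the file headers, scaled by the authors. FastQC 0.10.0, Trimmomatic 0.32 and build mm10 are named per the submitters' processing notes; the aligner, the counting tool, the handling of strand and of shared reads were not given in the sources used here. A deposited column headed NCL was taken as the library titled as nucleoplasmic RNA, through the design text of the series.

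Rows were summed per symbol, leaving out 56 rows without one. Genes of at least 1 FPKM in a library were compared as log2((nucleolin + 1) / (IgG + 1)), and 2-fold or more was counted. The worth of 1 fragment came from genes with 1 row and a span under 3000 bases. This search was devised after the values had been seen and was run on simulated data. Those data held whole fragments by design and an assumed share of genes without introns. They therefore do not show how often products coincide without whole fragments. Gene identifiers were matched to RefSeq, GRCm38.p6. Genes, lists and motifs were chosen with earlier results of these data known. Named genes are the 8, up to 3 highest of each list, the 5 nearest to Tff1, neighbours, Exosc10 and Ncl. Further genes were named after their values were seen. These are Lyz2, Foxa1, Lypd8, the listed genes at 0, the relatives of the 8 and the genes given for at least 700 FPKM. Python 3.11.15, pandas 2.3.3 and numpy 2.4.6 were used.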

Additional observations from a re-analysis of the deposited data

How the results depend on the processing

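Each of the 8 genes stayed at least 2-fold lower in the anti-nucleolin library under all 8 alternatives run (pseudocounts of 0.1 and 10, centring, 1 fragment set equal, highest row, repeated loci left out, no minimum and a minimum of 10 FPKM), which follows from values listed at 0. Their log2 ratios ran from -14.83 at a pseudocount of 0.1 to -1.04 (Muc6) at a pseudocount of 10, so the size of the ratio is set by the pseudocount. The genes 2-fold higher in the anti-nucleolin library numbered 1206, but 439 with a pseudocount of 10 and 448 with a minimum of 10 FPKM. Under either of these settings a gene at 0 in the IgG control needs at least 10 FPKM in the anti-nucleolin library to count. Of the 3194 genes compared, 1186 were below 0.1 FPKM in the IgG control. What else moved the count was not tested. Of the 83 other listed gastric genes 33 were compared, 30 lower and 2 higher, and 1 was higher under each of these settings. The share of the IgG FPKM held by the 8 genes moved from 3.86% to 7.53% without Rn45s, Lars2, Mir6236 and Mir142b. Among the BRICHOS family 5 genes were lower, but 3 with 1 fragment set equal, where Itm2b and Itm2c came within 2-fold. That setting multiplies the anti-nucleolin FPKM by 2.57, so it leaves out the scaling to the depth of each library. Among macrophage markers 5 were lower, and 1 with 1 fragment set equal. The alternative with coding lengths was not run, because no coding lengths were used here. No paired analysis was possible because each group had 1 library.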
